A study of Equus caballus with 17 samples.

Results

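Small RNA of the testis was compared between the Pre-puber and the Infant stage of the horse (Equus caballus), with 3 libraries of each stage. These 6 libraries are the testis samples labelled with either stage, of 17 libraries in the study, which also holds Puber testis (n = 3), Adult testis (n = 4) and sperm (n = 4). The labels describe the 2 groups by tissue and stage alone, so the age, the breed and the number of horses behind each group are not known here. The Infant libraries are titled 31a, 31b and 30, and the Pre-puber libraries 3a, 3b and 14. Whether 31a and 31b, or 3a and 3b, came from 1 animal is not stated. The spread behind the p-values comes from all 13 testis libraries in 1 fit, Puber and Adult among them, and may in part be technical. Every library was counted over both kinds of entry in the table. The first were 274 annotated mature miRNAs, each taken from the entry with the highest summed counts where a name had several. The second were 1461 predicted hairpins, which carry a sequence and a genome position but no miRNA name and are described separately. Total counts per library ran from 12.65 to 16.68 M (mega) in Infant and from 10.97 to 17.93 M in Pre-puber, and annotated counts from 9.535 to 12.37 M and from 8.109 to 13.12 M. No library pair of either stage differed by so little that it could be a repeat deposit of 1 library.

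A miRNA is a short RNA cut from a hairpin precursor, and it guides Argonaute proteins to messenger RNAs that pair with its seed, the bases near its 5′ end. Before puberty the testis tubules hold Sertoli cells and early germ cells, and the first germ cells enter meiosis as puberty approaches. Several miRNA groups are known from this tissue: the miR-506 family of the X chromosome is transcribed mainly in testis, the miR-34 and miR-449 family is abundant in germ cells from meiosis on, and the clusters around miR-17 are known for their role in dividing cells and spermatogonia.

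The hairpin sequences shown here are those of the predicted precursors, not of the reads counted on them. Hairpins that moved most are shown first, with the runs they share marked. Positions are in EquCab3.0, counted from 1, with the strand in brackets. The 8 hairpins below are the largest rises in Pre-puber by the rule that chose named hairpins. Capitals mark the longest run of at least 12 bases that a hairpin shares, on either strand, with another of the 8.
chr23:49184072-49184155 (+): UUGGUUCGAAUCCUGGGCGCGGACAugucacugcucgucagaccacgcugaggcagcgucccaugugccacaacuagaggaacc
chr7:50004655-50004706 (+): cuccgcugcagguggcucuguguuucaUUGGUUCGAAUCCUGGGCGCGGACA
chr4:45235434-45235504 (-): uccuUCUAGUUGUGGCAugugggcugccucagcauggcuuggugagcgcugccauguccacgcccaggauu
chr22:19496381-19496441 (-): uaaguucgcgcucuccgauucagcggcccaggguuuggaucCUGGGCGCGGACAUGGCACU
chr18:33073258-33073331 (-): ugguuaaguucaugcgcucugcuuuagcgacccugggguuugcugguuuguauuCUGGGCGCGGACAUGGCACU
chr5:62628315-62628357 (+): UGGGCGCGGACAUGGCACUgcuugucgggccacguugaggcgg
chr2:5152820-5152929 (+): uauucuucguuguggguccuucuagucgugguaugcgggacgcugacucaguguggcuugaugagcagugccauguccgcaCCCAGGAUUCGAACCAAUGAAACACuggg
chr15:82462600-82462653 (+): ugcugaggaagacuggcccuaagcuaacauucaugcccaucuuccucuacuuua
The run UGGGCGCGGACA was held, on either strand, by 5 of these 8 and by 14 of all 1461 hairpins (0.958%). The chr15 hairpin shared no such run with the others and belongs to the largest sequence family of the table, 108 hairpins (7.4%) linked by shared runs of 20 bases.

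Next to them stand 4 hairpins that were chosen to show abundant or lower members. Bases 2 to 8 of each hairpin are in capitals and need not be the seed of its mature miRNA. The hairpin on chr7, on the minus strand, is the one that fell most among those with at least 50 CPM in 1 of the stages and no overlap. From knowledge of the miRNAs rather than from the table, the hairpins on chr6 and chr11 hold the mature sequences of miR-26b and miR-152, and the one on chr1, chosen after its values were seen, that of miR-202, a miRNA known from the somatic cells of the gonad.
chr7:45229964-45230041 (-): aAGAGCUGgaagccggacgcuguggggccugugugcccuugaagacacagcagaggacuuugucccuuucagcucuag
chr6:7834344-7834399 (+): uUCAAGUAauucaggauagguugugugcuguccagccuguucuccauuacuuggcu
chr11:24247096-24247154 (-): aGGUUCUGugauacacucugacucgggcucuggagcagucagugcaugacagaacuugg
chr1:594419-594474 (+): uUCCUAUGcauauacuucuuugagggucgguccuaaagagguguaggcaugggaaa

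A single Pre-puber library stood apart from the others, and the main changes are therefore given with and without it. Library 14 held the highest Pre-puber level for 21 of the 29 annotated miRNAs that rose, with a median of 4.08 times the mean of 3a and 3b, and for 483 of the 510 hairpins that rose, with a median of 11.8 times. Its miR-34c, a marker of meiotic and later germ cells, stood at 2621 CPM (annotated counts per M after TMM scaling, the unit of all levels here, which are relative and need not sum to a library's total), against 37.7 in 3a and 70.5 in 3b. The Puber libraries held 10410 to 20290 CPM of miR-34c and the Adult libraries 32500 to 40860. In bulk tissue a change in the number of cells of a type and a change in the RNA per cell cannot be told apart, for this and for every result below.

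Of the 274 annotated miRNAs, 184 had enough counts to be tested and 90 did not. At an adjusted p under 0.05 (edgeR quasi-likelihood test, 13 testis libraries in 1 fit), 44 of the 184 (23.9%) differed between the stages, 29 of them higher in Pre-puber (15.8% of those tested) and 15 lower (8.15%). An unadjusted p under 0.05 was found for 62. The libraries of the 2 stages did not overlap for 66 of the 184 (35.9%), 34 higher and 32 lower, and for 39 of the 44. The median log2 fold change over all 184 was 0.16. Without scaling beyond the total it was 0.58, with 36 higher and 5 lower calls, and with the hairpins in the same fit 0.55, with 39 and 7, so the balance of rises and falls depends on the scaling. Without library 14 there were 25 rises and 8 falls, and 31 of these 33 calls were among the 44, 23 rises and 8 falls.

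When each of the 6 libraries and Adult 4 was left out in turn, 25 of the 44 calls were kept every time, 19 of the 29 rises and 6 of the 15 falls. The 19 rises were miR-509a-5p, miR-514a, miR-508-5p, miR-509b and miR-514b of the miR-506 family, miR-8908g, miR-8908j and miR-8908k, miR-17, miR-20a, miR-20b, miR-93 and miR-106a, miR-183, and miR-371-5p, miR-138, miR-874, miR-8971 and miR-8921. The 6 falls were let-7d, miR-873, miR-135a, miR-361-5p, miR-337-5p and miR-212. The other 10 rises and 9 falls lost the call at least once, and those cases stand beside each below. Summing libraries that share a title number left 25 rises and 4 falls: all 19 of these rises kept the call there, while miR-361-5p and miR-337-5p of the 6 falls lost it (adjusted p = 0.106 and 0.0676).

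**Figure D1:**
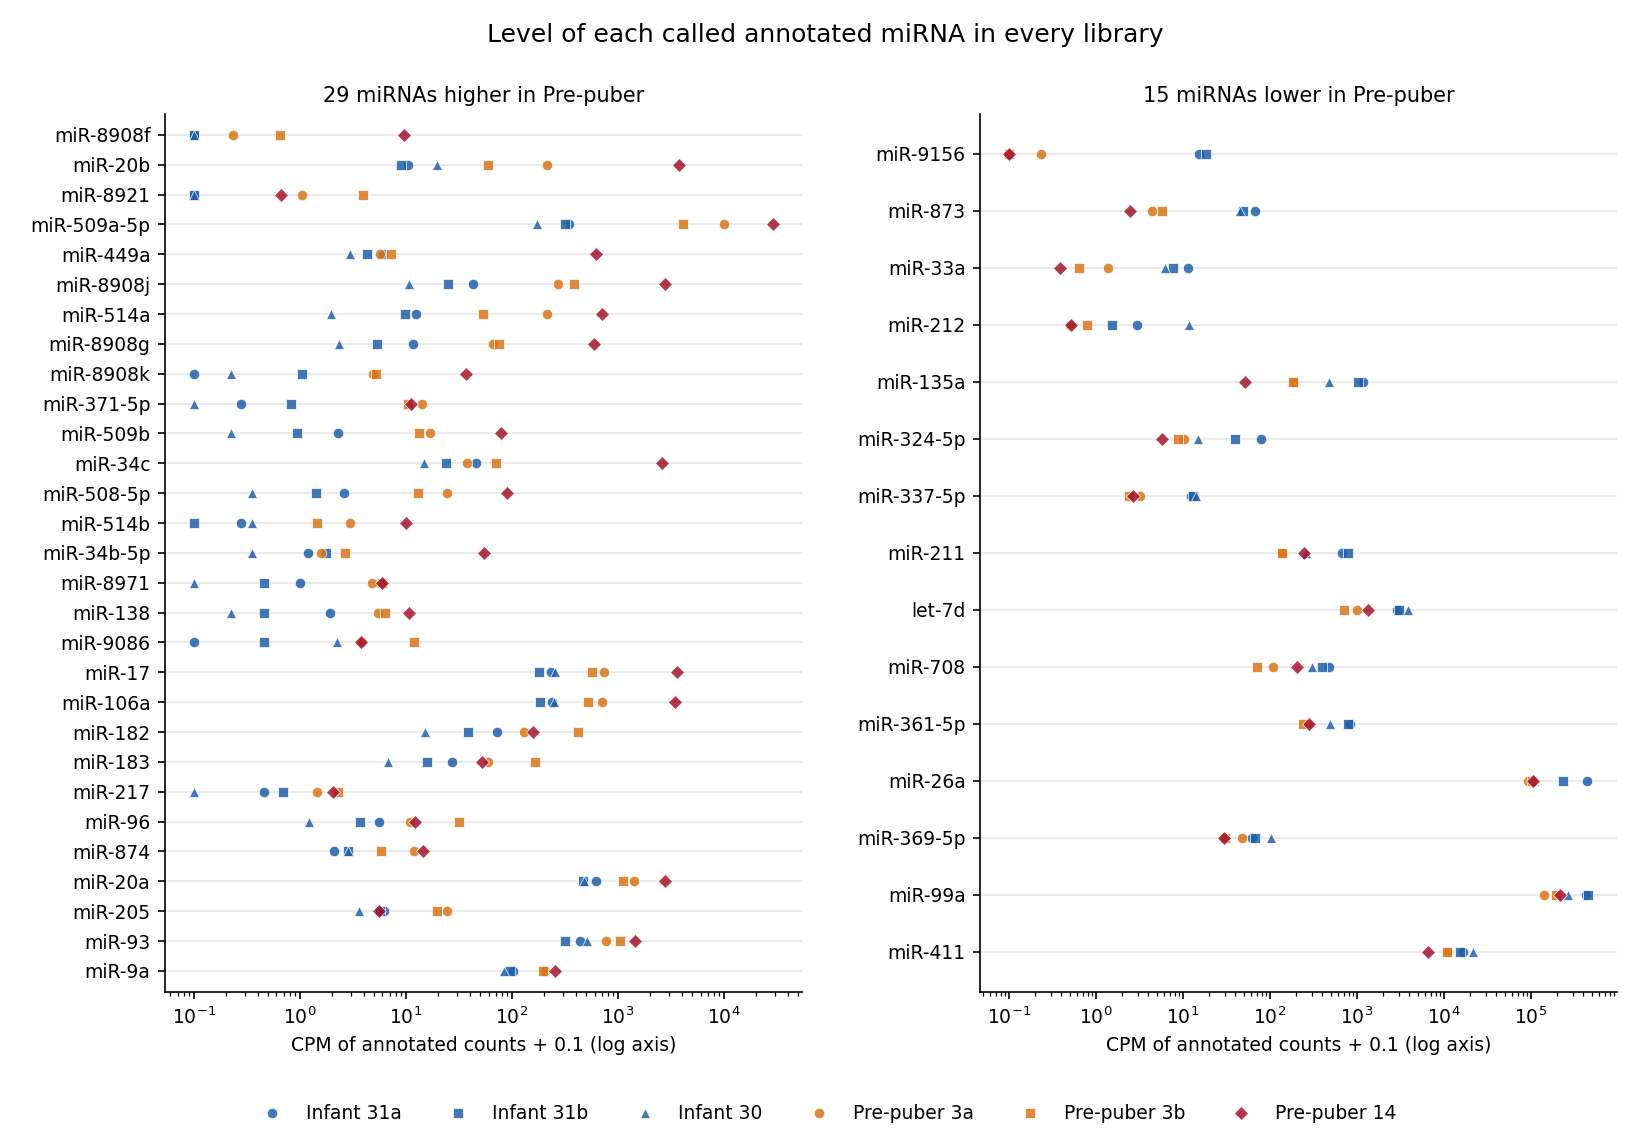
Level of each of the 44 called annotated miRNAs in the 3 Infant (blue) and 3 Pre-puber libraries (orange, library 14 in red), as CPM + 0.1 on a log axis, with the 29 rises on the left and the 15 falls on the right, ordered by fitted fold change. Library 14 lies far to the right of the other Pre-puber libraries for miR-20b, miR-34c, miR-449a and the miR-8908 members, but not for miR-371-5p and miR-9086.

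The miR-506 family of the X chromosome, which is expressed in testis and evolves fast in mammals, rose as a whole: all 5 measured members were higher in Pre-puber, against 15.8% of all miRNAs tested. miR-509a-5p was the most abundant of them, with 345, 314 and 172 CPM in Infant 31a, 31b and 30, and with 10080, 4054 and 28840 CPM in 3a, 3b and 14 of Pre-puber. The lowest Pre-puber library thus stood far above the highest Infant library. Its log2 fold change was 5.69 ± 0.66 (standard error, approximate; adjusted p = 0.000186), and 4.68 without library 14. miR-514a went from 12.4, 9.78 and 1.88 CPM to 212, 52.8 and 711 CPM (a log2 change of 5.34 ± 0.96, adjusted p = 0.00202), and stood at 4.05 without library 14. The less abundant miR-508-5p (mean 1.36 CPM in Infant and 41.9 in Pre-puber), miR-509b (1.04 and 36.2) and miR-514b (0.144 and 4.67) rose with log2 fold changes of 4.97, 5.16 and 4.89, the last on 3 counts in Infant. Without library 14 these were 3.81, 3.92 and 3.80. None of the 5 overlapped between the stages. Level differed within the family by orders of magnitude, with miR-509a-5p holding nearly all of its summed CPM, which was 175 to 362 in Infant and 4135 to 29730 in Pre-puber. In the RefSeq gene order of another horse assembly (TB-T2T), the 5 belong to 1 unbroken run of 10 miRNA genes. Reads from the near-identical copies of this family could be shared in the authors' counting, so the split between members is uncertain.

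The rise was not particular to this family among X-linked miRNAs. By the same gene order the miR-8908 family, miR-20b and miR-106a, given below, also lie on the X chromosome and rose. Another X-linked group did not show this rise. The 6 tested members of the cluster of miR-424, miR-503, miR-450 and miR-542, known from somatic tissue, had no call. Of all tested miRNAs 23.9% were called. The cluster's median log2 fold change was -0.20, with miR-450c at 7284 CPM in Infant and 6584 in Pre-puber, and miR-450a at 4873 and 3917. miR-450b-5p, the most abundant, stood at 12270 ± 1771 CPM in Infant and 14020 ± 5325 in Pre-puber (SD, n = 3 each). miR-503 of that cluster stood at 348 CPM in Infant and 872 in Pre-puber (log2 fold change 1.32 ± 0.63, adjusted p = 0.154). miR-105 and miR-767-5p, from a further X-linked cluster, were near 1 CPM in all Infant libraries and in 3a and 3b. In library 14 they stood at 12.2 and 37.2 CPM, and neither passed the test (adjusted p = 0.154 and 0.0548). These results depend on the scaling. Without scaling beyond the total, and with the hairpins in the same fit, 1 of these 2 passed the test as higher. With the hairpins in the same fit, the cluster of miR-424 had 1 rise and a median of 0.28, against 0.55 for all miRNAs. Whether the miR-506 family differs from these clusters was not tested.

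All 4 tested members of the miR-8908 family, a group named in the horse, rose as well, against 15.8% of all miRNAs tested. miR-8908j, the most abundant, went from 43.0, 25.1 and 10.5 CPM in Infant to 272, 382 and 2786 CPM in Pre-puber (log2 fold change 5.45 ± 0.98, adjusted p = 0.00202), and miR-8908g from 11.5, 5.25 and 2.25 to 65.5, 74.7 and 596 CPM (5.28 ± 0.94, adjusted p = 0.00202). In both, every Pre-puber library was above every Infant library and library 14 was the highest by far. Without library 14 the log2 fold changes were 3.64 and 3.48. miR-8908k rose from a mean of 0.360 to 15.6 CPM (a log2 change of 5.25, or 3.61 without library 14 and 7.44 without Infant 31b). miR-8908f had 0 counts in all 3 Infant libraries and 74 in Pre-puber, at least 24.9-fold higher when Infant is set to 3 counts over the group, and it lost the call without library 14 (adjusted p = 0.0515), where the bound was 2.47-fold. The median log2 fold change of the family was 5.37, and 5.27 with miR-8908f at that bound. RefSeq places the 4 in 1 run of 29 miRNA genes on the X chromosome, most of them miR-8908 copies. A further copy, MIR8908N, lies in the run of the miR-506 family. Reads may be shared between the copies, so the counts of single members are uncertain.

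The list of the miR-17-92 cluster with its paralogs had 5 rises and no fall among 8 tested members, against 15.8% of all tested miRNAs that rose. miR-20b changed most, from 10.3, 8.83 and 19.6 CPM in Infant to 212, 59.4 and 3788 CPM in Pre-puber (log2 fold change 6.71 ± 1.26, adjusted p = 0.0026). Library 14 decides the size of that change, which was 3.43 without it. miR-17 rose from 235, 180 and 252 to 732, 564 and 3571 CPM (2.87 ± 0.60, adjusted p = 0.00559; 1.56 without library 14), and miR-106a, whose counts nearly equal those of miR-17 in each group (4829 and 4830 in Infant, 40468 and 38765 in Pre-puber), by 2.80 ± 0.61 (1.48 without library 14). Whether the same reads were counted for miR-17 and miR-106a was not tested. miR-20a rose from 520 ± 85.2 to 1753 ± 869 CPM (a log2 change of 1.75 ± 0.43, adjusted p = 0.00996), and miR-93, which lies within the replication gene MCM7, from 421 ± 94.3 to 1085 ± 332 CPM (1.36 ± 0.33, adjusted p = 0.00989; SD, n = 3 for the levels). miR-18a, a product of the same cluster as miR-17 and miR-20a, stood at 12.2 CPM in Infant and 11.7 in Pre-puber (log2 fold change -0.05 ± 0.49). miR-106b, which neighbours miR-93 in MCM7, stood at 556 and 307 CPM (-0.86 ± 0.60, adjusted p = 0.33), and miR-18b near 1 CPM. The list's median was 1.56, against 0.16 for all tested miRNAs.

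The 3 miRNAs of the cluster of miR-183, miR-96 and miR-182, known from sensory organs and from germ cells, rose together. Among all tested miRNAs 15.8% rose. In this cluster library 3b rather than 14 was the highest. miR-182 stood at 72.0, 38.5 and 14.9 CPM in Infant and 130, 420 and 159 CPM in Pre-puber, and miR-183 at 26.8, 15.8 and 6.63 against 59.1, 164 and 51.9 CPM. miR-96 went from 5.40, 3.58 and 1.13 to 10.7, 31.6 and 12.1 CPM. Groups did not overlap for any of the 3. The log2 fold changes were 2.50 ± 0.69, 2.49 ± 0.60 and 2.43 ± 0.59 (adjusted p = 0.0179, 0.00989 and 0.00989). Without library 14 they were 2.71, 2.76 and 2.65. Without 3b miR-183 stood at 1.76. The call of miR-96 was lost without 3b (1.77, adjusted p = 0.051), and that of miR-182 without 3b (1.79, adjusted p = 0.0715), without Infant 31b (2.44, adjusted p = 0.065) or without Infant 30 (2.08, adjusted p = 0.0514). Pre-puber testis averaged 236 CPM of miR-182, the Puber libraries 147 CPM and the Adult libraries 58.3 CPM.

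The family of miR-34 and miR-449, the marker list of germ cells from meiosis on, had 3 rises among 5 tested members. Each of these rises rested on library 14, and the share of all tested miRNAs that rose was 15.8%. miR-34c stood at 45.8, 23.98 and 14.5 CPM in Infant and 37.7, 70.5 and 2621 CPM in Pre-puber, miR-449a at 5.94, 4.18 and 2.88 against 5.53, 7.18 and 619 CPM, and miR-34b-5p at 1.08, 1.67 and 0.250 against 1.48, 2.57 and 54.6 CPM. Library 3a lay within the Infant range for all 3, and 3b just above it. The log2 fold changes of 5.02, 5.604 and 4.25 (adjusted p = 0.0117, 0.0146 and 0.0179) became 0.95, 0.56 and 0.98 without library 14, with adjusted p of 0.18, 0.445 and 0.318. The call of miR-34b-5p was also lost without Infant 31a or 30 (adjusted p = 0.0646 and 0.0602) and that of miR-449a without Infant 31b (adjusted p = 0.0518). miR-449b was under 3 CPM in all 6 libraries. miR-34a, the member with a broad tissue range, stood at 109 ± 50.2 CPM in Infant and 68.8 ± 19.8 in Pre-puber (SD, n = 3; a log2 change of -0.66 ± 0.37, adjusted p = 0.224). The summed level of the list was 93.2 to 220 CPM in Infant, 120 and 165 in 3a and 3b, and 3343 in library 14. How far this marker list moves the other rises of library 14 was not tested.

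**Figure D2:**
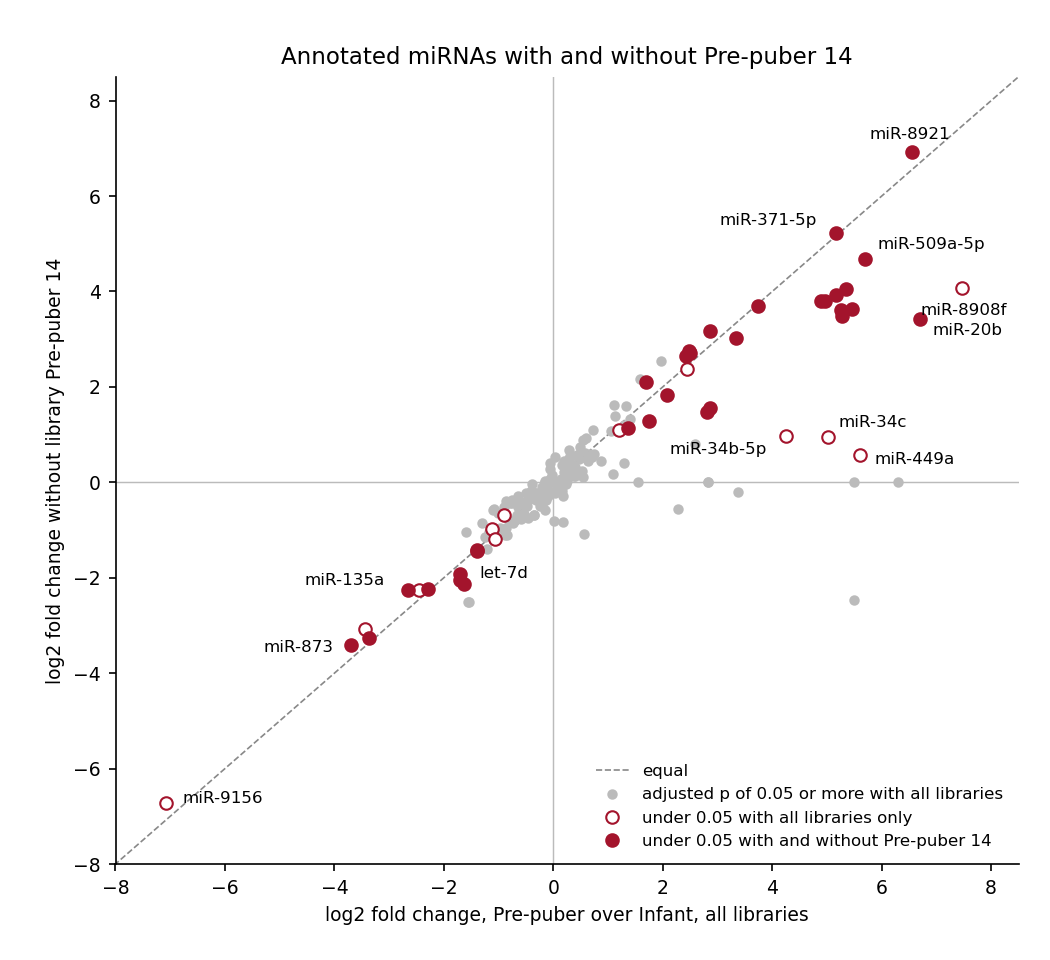
Log2 fold change (Pre-puber over Infant) of the annotated miRNAs with all libraries (horizontal) and without Pre-puber 14 (vertical); the dashed line marks equal values, filled red points passed an adjusted p of 0.05 in both fits and open ones only with all libraries. miR-34b-5p, miR-34c and miR-449a drop from 4.25, 5.02 and 5.604 to below 1, while miR-371-5p stays at 5.17 and 5.22.

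The remaining 9 rises belong to no cluster described so far. miR-371-5p, from a cluster known from embryonic stem cells and early germ cells, was the clearest of them: it stood at 0.180, 0.716 and 0 CPM in Infant and 14.0, 10.4 and 10.9 CPM in Pre-puber, on 7 and 363 counts. The 3 Pre-puber libraries lay close together, and the log2 fold change was 5.17 ± 0.85 with library 14 and 5.22 without it (adjusted p = 0.00202 and 0.00149). Leaving out Infant 31b moved it to 6.97 and Infant 30 to 4.57. Its levels in Puber (6.93 to 8.80 CPM) and Adult (1.65 to 6.50 CPM) were below all 3 Pre-puber libraries. The other arm, miR-371-3p, was too low to be tested. miR-9a, a neural miRNA at moderate level, rose from 102, 96.4 and 84.1 to 202, 194.6 and 256.5 CPM (1.21 ± 0.33, adjusted p = 0.0179). Its call was lost without library 14 (1.09, adjusted p = 0.0511), Infant 30 (adjusted p = 0.0525) or Adult 4 (adjusted p = 0.0627).

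Among low-level rises, miR-138 went from a mean of 0.761 to 7.38 CPM (a log2 change of 3.34 ± 0.76) and miR-8971 from 0.419 to 5.46 CPM (3.74 ± 0.73), with adjusted p of 0.00806 and 0.00308. Without Infant 31a these were 4.83 and 4.78. miR-874, within the gene KLHL3, rose from 2.49 ± 0.443 to 10.7 ± 4.49 CPM (SD, n = 3; 2.08 ± 0.48, adjusted p = 0.00853). miR-8921 had no counts in Infant and 46 in Pre-puber, at least 12.9-fold higher on the same floor of 3 counts, and 5.5-fold without library 3b. miR-205, known from epithelia, was high in 3a and 3b (24.2 and 19.4 CPM) but stood at 5.47 CPM in library 14, inside the Infant range of 3.50 to 6.12 CPM. Its call (1.69 ± 0.56, adjusted p = 0.045) was lost in 6 of the 7 fits that left out 1 library, with adjusted p from 0.0815 to 0.178, and kept without library 14 (2.11, adjusted p = 0.00982). Both miR-217 and miR-9086 rose from below 1 CPM, to 1.83 and 6.42 CPM. miR-217 lost the call without Infant 31a, Pre-puber 3b or 14, or Adult 4 (adjusted p = 0.0707, 0.0641, 0.0514 and 0.0818), and miR-9086 without Infant 31a or 31b or Pre-puber 3b (adjusted p = 0.105, 0.152 and 0.134).

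The falls were fewer and mostly smaller. miR-873, which lies within LINGO2 in the RefSeq annotation, fell most among those above 50 CPM, from 66.5, 49.4 and 45.4 CPM in Infant to 4.32, 5.69 and 2.38 CPM in Pre-puber (log2 fold change -3.69 ± 0.58, adjusted p = 0.00202). Puber and Adult testis stayed at that low level, with means of 5.90 and 5.89 CPM. miR-135a fell from 1156, 1035 and 480 to 189, 185 and 50.9 CPM (-2.65 ± 0.57, adjusted p = 0.00579). let-7d, of the let-7 family that restrains LIN28 and growth genes, fell from 2906, 3067 and 3881 to 992, 711 and 1336 CPM (-1.70 ± 0.31, adjusted p = 0.00202). miR-361-5p, within CHM, fell from 821, 790 and 487 to 275, 241 and 282 CPM (-1.40 ± 0.34, adjusted p = 0.00996). Stage groups were separate in all 4, and the change without library 14 was -3.42, -2.25, -1.92 and -1.43.

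Lower down, miR-337-5p fell from 13.0 ± 0.840 to 2.64 ± 0.413 CPM (SD, n = 3; log2 fold change -2.28 ± 0.57, adjusted p = 0.0104). miR-212, which shares a transcript with miR-132 and responds to CREB, stood at 2.88, 1.43 and 11.5 CPM in Infant and 0.405, 0.677 and 0.421 CPM in Pre-puber (-3.38 ± 0.79, adjusted p = 0.00853). Infant 30 held most of it, and the change was -2.08 without that library (adjusted p = 0.0417). The calls of miR-211, within the melanocyte gene TRPM1, and of miR-708, within TENM4, were each lost without Infant 31a or 31b and without Pre-puber 3a or 3b. miR-211 stood at 668, 788 and 261 CPM in Infant and 137, 138 and 248 in Pre-puber (-1.71 ± 0.50, adjusted p = 0.0242), with adjusted p of 0.0734, 0.101, 0.086 and 0.0732 in those 4 fits. miR-708 stood at 479, 391 and 305 against 107, 69.9 and 202 CPM (-1.63 ± 0.52, adjusted p = 0.0352), with 0.116, 0.0854, 0.11 and 0.105. miR-324-5p, within ACADVL, was at 79.6, 39.5 and 14.8 CPM in Infant and 5.61 to 10.1 CPM in Pre-puber, and its call (-2.46, adjusted p = 0.0153) was lost without Infant 31a (-1.74, adjusted p = 0.0843) or Pre-puber 14 (adjusted p = 0.0511). miR-33a, an intronic miRNA of the sterol regulator SREBF2, stood at a mean of 8.27 and 0.701 CPM (-3.44, adjusted p = 0.0242), and its call was lost without Infant 31a or 31b or Pre-puber 3b or 14, with adjusted p from 0.0503 to 0.0734. miR-9156 was present in Infant 31a and 31b (15.1 and 18.0 CPM) and at 0 in Infant 30, and its call (adjusted p = 0.045) was lost in 6 of the 7 fits that left out 1 library.

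The 2 most abundant annotated miRNAs of Infant testis also fell. miR-99a stood at 425500, 452700 and 263200 CPM in Infant and at 139400, 194100 and 213500 CPM in Pre-puber, with no overlap (log2 fold change -1.06 ± 0.36, adjusted p = 0.0492). miR-26a, known for its high level in differentiated tissue, stood at 438500, 234900 and 109000 against 91970, 102500 and 104800 CPM (-1.39 ± 0.41, adjusted p = 0.0242). Infant 30 thus lay just above the Pre-puber libraries, which were tight at 99770 ± 6850 CPM (SD, n = 3). Neither call was firm: that of miR-99a was lost in 6 of the 7 fits that left out 1 library (adjusted p from 0.0653 to 0.166) and that of miR-26a in 5 (0.052 to 0.164), where leaving out Infant 31a moved the change to -0.77. The other 8 of the 10 most abundant miRNAs, which were the same 10 in both stages, had no call. miR-10b (122100 CPM in Infant and 105700 in Pre-puber), let-7c (72130 and 71030), let-7a (66100 and 68410), let-7g (66080 and 72420), miR-21 (64980 and 72120) and miR-125b-5p (35820 and 28030) had overlapping libraries. let-7f did not overlap and stood at 83190 and 42420 CPM (-0.97 ± 0.43, adjusted p = 0.13), as did miR-100 at 39730 and 64700 CPM (0.70 ± 0.31, adjusted p = 0.13).

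The list of miR-99/100 and miR-125 families had 1 fall among 5 tested, beside 8.15% of all tested miRNAs that fell. Its median log2 fold change was -0.49. Without scaling beyond the total its 1 call was a rise, that of miR-100, instead of the fall of miR-99a, so which member is called depends on the scaling. The list's median was below 0 in all 5 scalings (-0.71 to -0.04), with 4 of the 5 members below the median of all miRNAs each time. The let-7 family had let-7d as its 1 call among 7 tested members, beside 23.9% of all tested miRNAs called, and a median of -0.33 (0.09 without scaling). let-7e stood at 6763 CPM in Infant and 5370 in Pre-puber and miR-98 at 1714 and 1095 CPM, and neither passed the test (adjusted p = 0.529 and 0.154).

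The imprinted DLK1-DIO3 region, a large cluster of miRNAs expressed from the maternal chromosome, had 3 falls and no rise among its 15 tested members, against 8.15% of all tested miRNAs that fell. The calls were miR-411 at 17750 ± 3252 CPM in Infant and 9493 ± 2496 in Pre-puber (SD, n = 3; log2 fold change -0.90 ± 0.26, adjusted p = 0.0202), miR-369-5p at 77.5 ± 22.6 and 35.6 ± 10.1 CPM (-1.12 ± 0.34, adjusted p = 0.0261), and miR-337-5p, given above. The values of 13 of the 15 were below 0 and the median was -0.90, against 0.16 for all miRNAs tested. Across the other 4 scalings 11 to 14 members were below 0, while the calls numbered 0 to 3, with none when the hairpins were in the same fit. miR-411 lost its call without library 14 (-0.68, adjusted p = 0.0889), Infant 30 (-0.76, adjusted p = 0.0705) or Adult 4 (adjusted p = 0.0615), and miR-369-5p without library 14, Infant 30 or Pre-puber 3b (adjusted p = 0.0997, 0.0982 and 0.0837). miR-379, the most abundant member, stood at 30360 CPM in Infant and 23140 in Pre-puber, with 37920 in library 3b and 10380 in library 14 (adjusted p = 0.684). miR-432 stood at 1130 and 562 CPM (adjusted p = 0.115). miR-409-5p had a value above 0, at 828 and 1016 CPM (0.29 ± 0.50). Library 14 was the lowest of the 3 Pre-puber libraries in the summed level of the region, with 18340 CPM against 35380 and 53280, and the Infant libraries held 46940 to 60030. The 2 miRNAs of other imprinted loci, miR-335 of MEST (428 and 204 CPM) and miR-675 of H19 (146 and 69.0 CPM), gave -1.07 and -1.08 and did not pass the test (adjusted p = 0.0608 and 0.251).

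**Figure D3:**
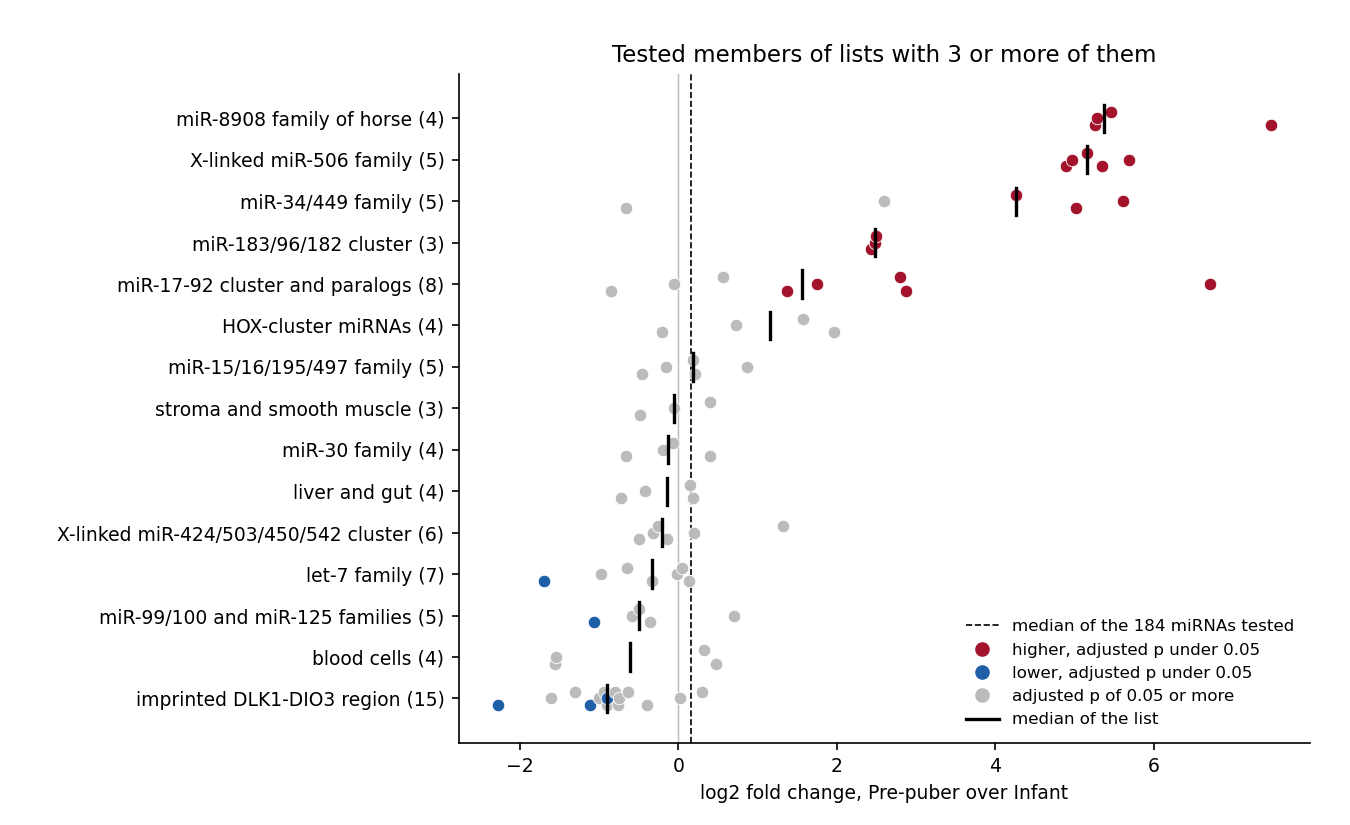
Log2 fold change (Pre-puber over Infant) of each tested member of the lists with 3 or more of them, with the number tested in brackets, the list's median as a black bar and the median of all 184 miRNAs as a dashed line. All members of the miR-8908, miR-506 and miR-183 groups are called higher (red), and the 3 called members of the DLK1-DIO3 region are called lower (blue).

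Families that are broad in tissue gave no call in the main fit. With upper quartile scaling the miR-181 family had 1 fall among 2 tested. With the hairpins in the same fit the list of HOX clusters had 2 rises among 4. The family of miR-15, miR-16, miR-195 and miR-497 had 0 of 5 called (median log2 fold change 0.18), with miR-195 at 2668 CPM in Infant and 4868 in Pre-puber, miR-16 at 1548 and 1389 and miR-497 at 368 and 425. The miR-30 family had 0 of 4 (median -0.13), and miR-30d, its most abundant member, stood at 15060 and 14390 CPM, followed by miR-30c at 5153 and 6786 and miR-30e at 3338 and 2118. miR-181a stood at 5638 and 3378 CPM (-0.74 ± 0.29, adjusted p = 0.0879) and miR-181b at 1399 and 945. miR-146a was at 4975 and 3061 CPM and miR-146b-5p at 1250 and 709, the latter with 3059 CPM in Infant 30 alone. miR-21 and miR-146a, which have been reported in undifferentiated spermatogonia, had no call. Among miRNAs of the HOX clusters, miR-10a stood at 1383 and 2286 CPM, and miR-196a and miR-196b were highest in library 3a (160 and 173 CPM) and lowest in library 14 (4.63 and 5.47 CPM), and they overlapped with Infant (4.30 to 45.7 and 9.78 to 31.0 CPM). Without library 14, miR-196b passed the test (log2 fold change 2.55, adjusted p = 0.0128). These counts of 0 stand beside 23.9% of all tested miRNAs called.

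Of the annotated members of the marker lists for cell types other than germ cells, miR-9a of the neural list was the 1 that passed the test. miR-205 of epithelia, which is in no list, and the hairpin of miR-202, whose list had no annotated member, also passed and are given with the other rises. Of all tested miRNAs 23.9% were called. miR-199a-5p, miR-192 and miR-194 did not pass, but every Pre-puber library was below every Infant library. Libraries did not overlap for 35.9% of all tested miRNAs. The 3 stroma and smooth muscle markers that were measured (miR-145 at 3779 CPM in Infant and 5000 in Pre-puber, miR-199a-5p at 29840 and 21350 and miR-199b-5p at 8068 and 7752) summed to 32330 to 51210 CPM in Infant and 31500 to 37770 in Pre-puber. The endothelial marker miR-126-5p stood at 218 to 424 CPM in Infant and 142 to 620 in Pre-puber. The 4 blood markers (miR-142-5p, miR-150, miR-451 and miR-486-5p) summed to 1064, 1252 and 6507 CPM in Infant 31a, 31b and 30 and to 1670, 970 and 2749 CPM in libraries 3a, 3b and 14. Infant 30 held 5014 CPM of miR-486-5p, a red cell miRNA, against 142 to 1288 CPM in the Pre-puber libraries. miR-142-5p of white cells stood at 427 and 593 CPM and miR-150 of lymphocytes at 377 and 472. The striated muscle marker miR-499-5p was at 30.8 to 38.3 and 20.3 to 39.97 CPM, and the 4 liver and gut markers (miR-122, and miR-192, miR-194 and miR-215 at 160, 37.7 and 19.9 CPM in Infant and 119, 22.9 and 22.0 in Pre-puber) summed to 220 to 243 and 170 to 186 CPM. The neural marker miR-124 was at 0 in all Infant libraries and under 1 CPM in Pre-puber. The part of these cell types in the differences above was not tested.

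Among the entries tested, predicted hairpins differed far more often than annotated miRNAs, and almost always upward. Of the 1461, 733 were tested and 728 were not. The filter on low counts took in all 13 testis libraries, so a hairpin could enter the test through its Puber or Adult counts. In Pre-puber 510 were higher (69.6% of those tested) and 11 lower (1.5%). An unadjusted p under 0.05 was found for 555. The median log2 fold change was 4.44, but 263 of the 733 had 0 counts in Infant, and with these at the floor of 3 counts it was 3.18. Without that filter 499 were higher (38.7%) and 14 lower (1.08%) of 1291, with a median of 2.76, beside 12.2% and 7.17% of annotated miRNAs. The fit of the 2 stages alone, which filtered on these libraries only, had 148 higher (69.8%) and 7 lower of 212 tested. Most of the rises were rare: the 510 had a median level of 2.98 CPM in Pre-puber, and only 21 reached a mean of 50 CPM there. Library 14 carries much of the count. Without it 230 were higher and 13 lower of 756 tested, 225 of the 230 among the 510, and the median fell to 1.73, or 0.72 at the floor. The libraries of the 2 stages were separate for 278 of the 510, and the share over all tested hairpins was not counted.

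Many hairpins share sequence, so they are not independent entries. They fall into 1151 families by shared runs of 20 bases, of which 1048 hold a single hairpin, and 178 of the tested hairpins had the same counts in every testis library as another. With 1 hairpin kept per shared sequence, 273 of 455 were higher and 7 lower. In the largest family, found on 30 chromosomes or contigs, 98 of 108 tested members rose and none fell, and its summed level was 60.9 to 67.3 CPM in Infant, 873 and 571 CPM in 3a and 3b, and 2662 CPM in library 14. All 25 members of the second family rose, with 21.6 to 34.9 CPM in Infant and 774 to 1672 CPM in Pre-puber. The 1048 hairpins that stand alone had 218 rises and 5 falls among 373 tested. Beside these family counts stands the 69.6% of all tested hairpins that rose. Families of many copies on many chromosomes also mean that the authors' counting may have assigned the same reads to several positions.

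The 12-base run found in most hairpins, AGGAAGAUUGGC (reverse complement GCCAAUCUUCCU), occurred in 82 of the 1461 (5.61%), of which 70 rose and none fell, beside 69.6% of all tested hairpins that rose. Their summed level was 25.2, 28.8 and 41.7 CPM in Infant and 249, 179 and 1085 CPM in Pre-puber. The run shown in the largest rises, UGGGCGCGGACA (reverse complement UGUCCGCGCCCA), occurred in 14 hairpins, all of which rose. It was picked from the largest rises, so this count is a description, beside the same 69.6%. Those summed to 18.0, 22.9 and 12.01 CPM in Infant and 895, 551 and 1861 CPM in Pre-puber, so for this run 3a and 3b were already far above Infant. A shared run describes these letters alone and names no source of the RNA.

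Of the 8 largest rises, the pair on chr23 and chr7 (plus strand) did not depend on library 14. The chr23 hairpin stood at 3.24, 2.86 and 2.13 CPM in Infant and 288, 147 and 328 CPM in Pre-puber (log2 fold change 6.53 ± 0.78, adjusted p = 0.000197; 6.32 without library 14). The chr7 hairpin, which shares its 25 capital bases, stood at 1.26, 1.91 and 0.876 against 187, 67.8 and 110 CPM (6.47 ± 0.92, adjusted p = 0.000501; 6.55 without library 14). Adult testis held 204 to 625 CPM of the first and 69.4 to 297 CPM of the second. The other 6 rises were led by library 14. The chr4 hairpin was at 0.720, 0.716 and 5.26 CPM in Infant and 23.6, 19.0 and 442 CPM in Pre-puber, and its log2 fold change of 6.16 ± 1.28 was 3.27 without library 14. The hairpins on chr22, chr18, chr5, chr2 and chr15 lay between 0.501 and 2.15 CPM in all Infant libraries, between 6.77 and 30.4 CPM in 3a and 3b, and between 164 and 249 CPM in library 14. All 5 kept their call without it (log2 fold changes from 3.03 to 4.14).

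**Figure D4:**
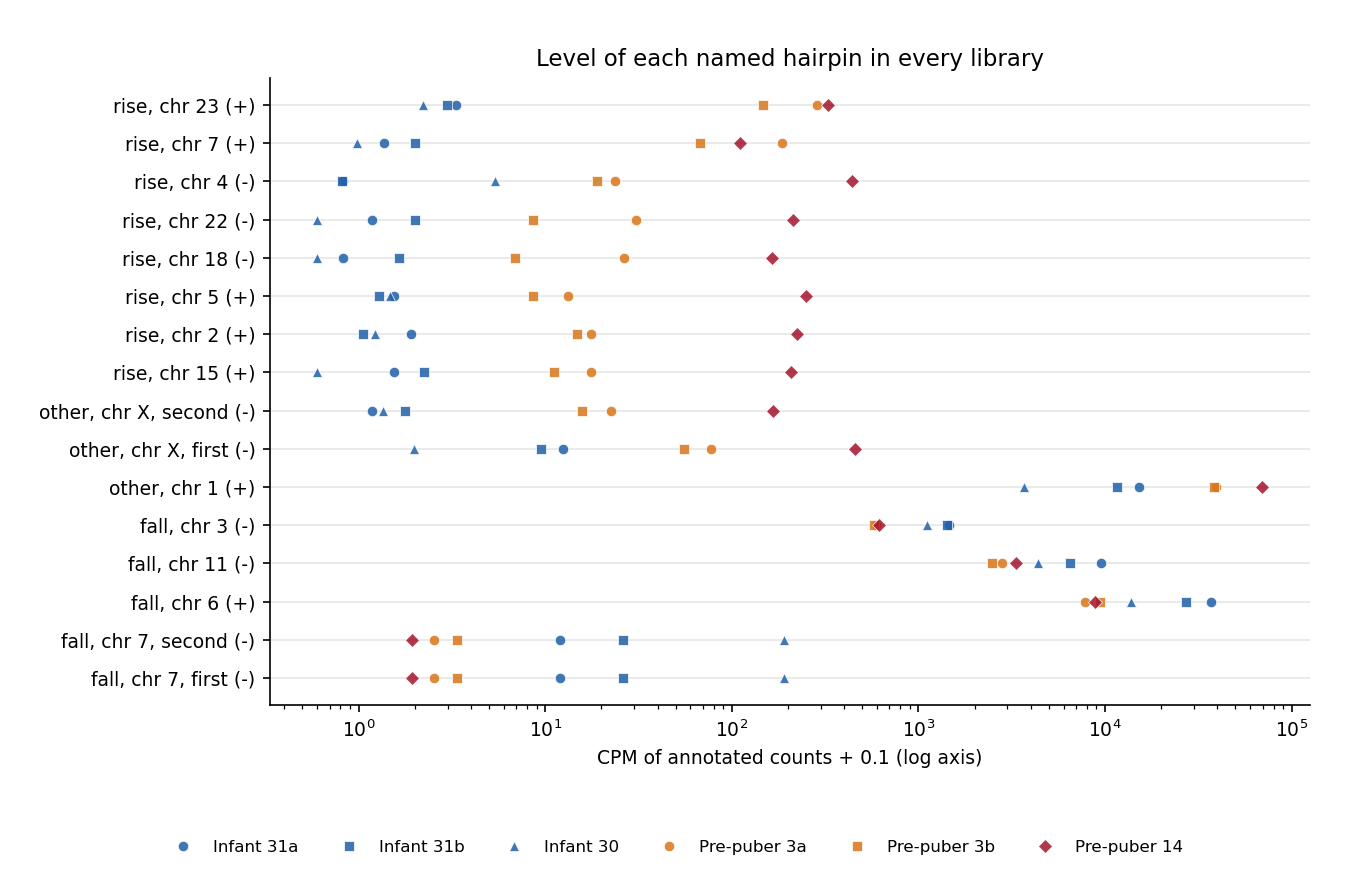
Level of the named hairpins in every library, as CPM + 0.1 on a log axis, with Infant libraries in blue, Pre-puber 3a and 3b in orange and Pre-puber 14 in red, labelled by chromosome and strand. In the chr 23 and chr 7 rises the 3 Pre-puber libraries lie together at 67.8 to 328 CPM, while in the other 6 rises library 14 lies to the right of both.

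By the same rule 5 hairpins fell. The pair on chr7 (minus strand) had the same counts in every testis library although their sequences differ, and stood at 11.9, 26.1 and 190 CPM in Infant and 2.43, 3.25 and 1.82 CPM in Pre-puber (log2 fold change -4.91 ± 1.32, adjusted p = 0.00759). Infant 30 held most of it, and the change was -2.93 without that library (adjusted p = 0.0282). The miR-26b hairpin on chr6 stood at 37010, 27030 and 13700 CPM in Infant and 7823, 9380 and 8839 CPM in Pre-puber (-1.58 ± 0.41, adjusted p = 0.00603). In Infant its libraries stood in the same order as those of miR-26a, a miRNA with the same seed. The miR-152 hairpin on chr11 stood at 9516, 6529 and 4349 against 2818, 2478 and 3351 CPM (-1.24 ± 0.35, adjusted p = 0.00939), and lost its call without Infant 31a (-0.90, adjusted p = 0.0548). A hairpin at chr3:90484145-90484202 stood at 1331 and 596 CPM on average (-1.16, adjusted p = 0.0385), and its call was lost in 6 of the 7 fits that left out 1 library, with adjusted p from 0.0574 to 0.106.

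Another 7 hairpins were singled out after their values were seen, 3 of which rose. The miR-202 hairpin on chr1 was the most abundant hairpin that rose, from 15220, 11590 and 3703 CPM in Infant to 39140, 38360 and 69600 CPM in Pre-puber. The log2 fold change was 2.27 ± 0.46 (adjusted p = 0.00141) and 1.93 without library 14, and no library left out in turn ended the call. Puber testis held 48870 to 75090 CPM of it and Adult testis 39440 to 104400 CPM. Both hairpins singled out on the X chromosome, at chrX:119901739-119901793 and chrX:119911163-119911218 on the minus strand, rose from 12.4, 9.42 and 1.88 to 77.0, 55.4 and 456 CPM and from 1.08, 1.67 and 1.25 to 22.5, 15.7 and 166 CPM (log2 fold changes 4.63 ± 0.91 and 5.65 ± 0.98, and 3.07 and 3.83 without library 14). The let-7i hairpin on chr6 stood at 106300 CPM in Infant and 79250 in Pre-puber and did not pass the test (-0.42 ± 0.23, adjusted p = 0.106), although its libraries did not overlap. Nor did hairpins on chr20 (8432 and 7777 CPM, -0.12, adjusted p = 0.784), chr2 on the minus strand (1816 and 1691 CPM, -0.10, adjusted p = 0.818) and chr13 (549 and 663 CPM, 0.27, adjusted p = 0.66) pass it.

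**Figure D5:**
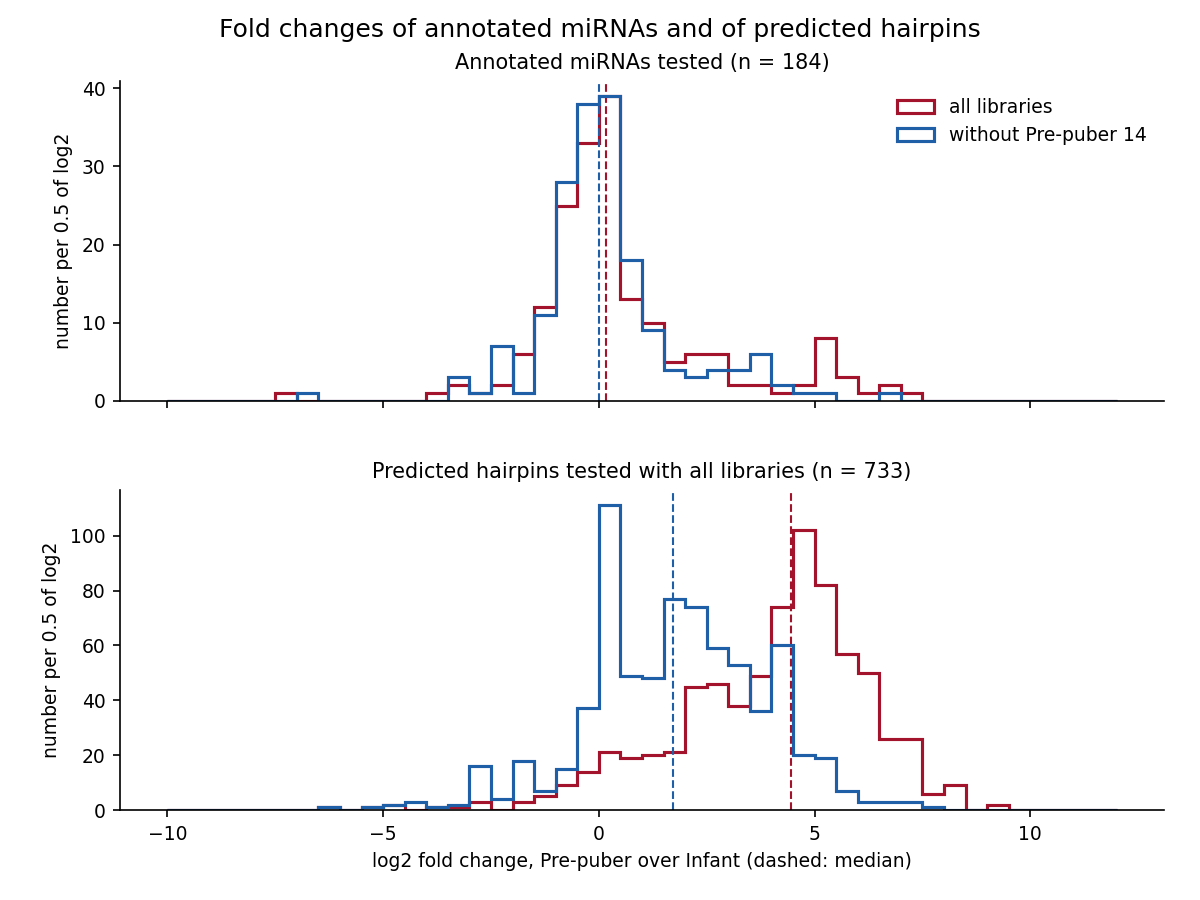
Number of annotated miRNAs (above) and predicted hairpins (below) at each log2 fold change of Pre-puber over Infant, with all libraries (red) and without Pre-puber 14 (blue), and dashed medians. The annotated miRNAs centre near 0 in both fits, while the hairpins centre at 4.44 with library 14 and lower without it.

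The share of counts that fell to hairpins differed far less than their number of rises. Hairpins held 10.2 ± 1.04% of the counts of annotated miRNAs and hairpins together in Infant and 13.2 ± 0.835% in Pre-puber (SD, n = 3 each), a difference of 2.98 percentage points (exact two-sided permutation test, p = 0.1, the smallest that 3 against 3 libraries allow). The groups did not overlap, at 9.11 to 11.2% against 12.4 to 14.0%. The 8 most abundant hairpins, among them those of let-7i, miR-26b and miR-202, held 98.1 to 98.5% of the hairpin counts in Infant, 96.7 and 97.8% in 3a and 3b and 91.7% in library 14. Without those 8, hairpins summed to 2508 to 2833 CPM in Infant, 4763 and 3568 CPM in 3a and 3b, and 14100 CPM in library 14. The number of hairpins with at least 5 counts was 154, 187 and 198 in Infant 31a, 31b and 30 and 461, 303 and 687 in Pre-puber 3a, 3b and 14, while the number of annotated miRNAs with at least 5 counts was 166 to 172 and 174 to 185.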

How the data were processed

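Counts of small RNA reads were taken from 1 deposited table of 1763 entries for horse testis and sperm. The authors' values were whole read counts per entry, with RPM beside them, and the deposited RPM equalled the count scaled to the library's total (largest difference 0.005 RPM). RPM columns were not used further. Reads were trimmed with Trimmomatic (version not given) and placed on EquCab3.0, per the submitters' processing notes. The aligner and the counting program are not given in the sources used here. Totals over all libraries were not used. The Adult and Sperm libraries titled 4 were told apart by the prefix of their columns, an inference.

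Levels are CPM of annotated counts after TMM scaling. edgeR 4.0.16 (R 4.3.3) quasi-likelihood tests were run on the 13 testis libraries after filterByExpr by stage, with Benjamini-Hochberg adjustment, on annotated miRNAs and on hairpins apart, the latter scaled by the former. The F statistic gave the standard errors, which are therefore approximate. The script was tested on simulated counts. Alternatives were other scalings, filters, entries and fits, DESeq2 1.42.0, limma 3.58.1 and leaving out each library. The comparison, the members and the 30 miRNA lists were chosen with earlier results of these data known.

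Named were the 12 largest rises and 12 largest falls that passed an adjusted p of 0.05, averaged 50 CPM or more in 1 of the stages and did not overlap (22 in all), every other call, the 10 most abundant miRNAs of each stage, the 3 most abundant tested members of each list, and for hairpins the 8 largest rises and falls by the same rule, 1 per identical sequence (5 falls met it). RefSeq names matched 270 of the 274 miRNAs. It is of another assembly (TB-T2T) and was used for names, host genes and gene order alone. Mature sequences of annotated miRNAs are not used here.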

Additional observations from a re-analysis of the deposited data

How the results depend on the processing

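Of the 44 annotated calls, 25 were kept when each of 7 libraries was left out in turn, with 33 to 42 calls in the leave-one-out fits of the 6 libraries and 37 without Adult 4, an alternative chosen after seeing the data. A fit of Infant and Pre-puber alone gave 26 calls, and summing libraries that share a title number gave 29 (25 higher and 4 lower, against 29 and 15), both with fewer libraries behind the spread. Other settings gave 36 to 48. Hairpin calls, 521 with all libraries, were 155 in the fit of the 2 stages alone, where 212 hairpins were tested, 268 with limma, 280 with 1 hairpin per shared sequence, and 243 to 564 in the leave-one-out fits, lowest without Pre-puber 14. The cause of the limma count was not tested. The hairpin share differed by 2.45 to 3.49 points without 1 library. No named call reversed its direction under any alternative run. For annotated miRNAs, values were counted over the 44 calls and the other miRNAs among the 10 most abundant. There 788 values kept their side of the threshold, 134 lost it and 2 gained it. Other uncalled members of the lists are not in this count, and some of them passed in other settings, such as miR-196b without library 14. Over the named hairpins 338 values kept their side and 16 lost it. No paired analysis was possible because the 2 stages share no replicate number. Depth limits the rarest entries: 175 of the 510 hairpins that rose had 0 counts in Infant, and miR-514b had 3.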
